A study of Mus musculus with 9 samples.

Results

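The annotated splice junctions that lie within 10 Mb of Kdm1a on mouse chromosome 4 were examined in RNA-seq libraries of mouse liver. Kdm1a encodes LSD1, the gene named in the knockout label, and lies at chr4:136550540-136602723 (mm10, minus strand). A junction is the position at which a read leaves one exon and continues in the next, so its coordinates are those of the intron in between. Members had to start at or above base 126550540, end at or below base 146602723, carry the aligner's annotation flag, and hold 20 or more uniquely mapped reads over all 9 libraries together. This gave 1628 of the 108660 annotated junctions with that many reads in the genome. The rest of chromosome 4 held 5202, which served as the comparison set. The members were thus chosen by their summed reads, so their overall abundance is a description; the sum did not use the group labels.

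All mice were C57BL/6, and every one, the WT mice included, received an intraperitoneal AAV8-ApoE/ATT1-Cre injection. Doxycycline, which induces YAP in this model, is listed for all 3 groups, WT included, at 30 mg/L in the water they drank over 14 days. The 3 groups, with 3 libraries each, were WT liver, liver with the YAP genotype, and liver with the YAP; Lsd1 KO genotype (YAP_Lsd1ko). There was no Lsd1 KO group without YAP, so an effect of the knockout outside YAP livers cannot be told apart from one that needs YAP. The labels do not state which part of Kdm1a is lacking, nor whether each library is a mouse of its own, so p-values measure the spread between these libraries. RNA was taken from whole liver, in which cells other than hepatocytes contribute, and in such bulk samples fewer cells of a type and less RNA per cell cannot be told apart.

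LSD1 removes methyl groups from histone H3 and works in the CoREST and NuRD complexes. Partners in them are the histone deacetylase HDAC1, found in both, and the histone-binding protein RBBP4, a subunit of NuRD. The genes of both partners, Hdac1 and Rbbp4, happen to lie inside the window. Spliced reads are placed by sequence alone: a read that matches several places equally well is counted as multi-mapped instead of unique. Ribosomal protein genes and some chromatin genes have processed pseudogenes, which are intron-less copies of a messenger RNA elsewhere in the genome and are a common source of such equal matches.

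The results turn mainly on 7 junctions, whose exon-exon sequences are shown because they are the stretches a read has to match to be counted. Each is read from the GENCODE M21 transcript, 5′ to 3′, with up to 38 coding bases from each exon and the 4 bases on either side of the join in capitals. Rpl11 is cut after 27 bases of its last exon, where the coding sequence ends.
Rpl11 intron 5 of 5, chr4:136050017-136050279, minus strand: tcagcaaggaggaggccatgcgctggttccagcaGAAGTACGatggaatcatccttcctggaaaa
Hdac1 intron 4 of 13, chr4:129523102-129524245, minus strand: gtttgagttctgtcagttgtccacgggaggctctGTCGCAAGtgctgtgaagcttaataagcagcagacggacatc
Hdac1 intron 3 of 13, chr4:129524321-129528926, minus strand: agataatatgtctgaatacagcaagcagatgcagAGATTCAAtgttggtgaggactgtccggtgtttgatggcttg
Rbbp4 intron 9 of 11, chr4:129317920-129318443, minus strand: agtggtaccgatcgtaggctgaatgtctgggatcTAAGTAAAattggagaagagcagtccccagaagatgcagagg
Trnau1ap intron 5 of 8, chr4:132319575-132321678, minus strand: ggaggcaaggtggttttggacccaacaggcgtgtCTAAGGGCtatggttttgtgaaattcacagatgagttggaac
Cep85 intron 5 of 13, chr4:134153927-134154262, minus strand: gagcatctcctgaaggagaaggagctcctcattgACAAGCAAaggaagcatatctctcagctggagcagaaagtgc
Kdm1a intron 15 of 19, chr4:136554401-136555172, minus strand: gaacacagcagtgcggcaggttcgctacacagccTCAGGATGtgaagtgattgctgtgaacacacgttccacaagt
All 7 lie between coding exons.

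The 1628 members resembled the junctions of the rest of chromosome 4 in make-up. Their introns had a median length of 1125.5 bases against 1317.5, and 1616 carried the GT-AG motif, 8 GC-AG and 4 AT-AC. The median member held 121 reads over all libraries against 140, and 88.5% of members had a read in every library against 88.2%. Of the members, 1605 belonged to 1 gene, 22 to more than 1 and 1 to no intron of GENCODE M21; the single-gene ones came from 180 genes, 177 of them protein-coding. A copy with at most 3 mismatches over the 76 bases around the join was present in transcripts of another gene for 97 members (5.96%) and for 311 junctions of the rest (5.98%). The 93 members with 20 to 24 reads had a median of 0.27 CPM (unique reads per 1000000 in the scaled library) in WT, 0.34 in YAP and 0.30 in YAP_Lsd1ko; the 83 annotated junctions just under the minimum, with 15 to 19 reads, had 0.23, 0.23 and 0.20. At the edges of the window, the first member belonged to Clspn and the last to Zfp992, with Ago4 and Zfp982 just outside.

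The libraries held 6910297 to 9925154 unique junction reads, of which 40094 to 56749 lay on members. Members took 0.527% to 0.66% of the reads on tested junctions. The most read genes were Ubr4, an E3 ubiquitin ligase with 105 members, Sdhb, a subunit of mitochondrial complex II, and Cdc42, a small GTPase of the cytoskeleton; together they held 13.9% of the single-gene reads. None of the 3 passed the gene test in any comparison. Multi-mapped reads made up 7.71% to 8.3% of member reads in the 6 WT and YAP libraries and 6.39% to 6.65% in the 3 YAP_Lsd1ko libraries, so the groups did not overlap. Without Rpl11 the shares were 6.04% to 6.47% and 6.37% to 6.6%, which overlap.

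Kdm1a itself had 17 member junctions, all of them read in every library. Summed per gene, its level was 30.1, 38.3 and 31.3 CPM in the WT libraries, 36.7, 42.7 and 46.2 in YAP, and 15.8, 35.4 and 25.3 in YAP_Lsd1ko replicates 1 to 3. The library labelled YAP_Lsd1ko replicate 2 lay within the range of WT, while the other two lay below all WT and YAP libraries. The log2 fold change was -0.72 ± 0.25 (SE, n = 3 against 3) for YAP_Lsd1ko against YAP and -0.39 ± 0.26 against WT, with edgeR adjusted p of 0.186 and 0.539; neither passed the threshold of 0.05. YAP against WT gave 0.33 ± 0.25 (edgeR adjusted p = 0.381). Without YAP_Lsd1ko replicate 2 the change against YAP was -1.03 and against WT -0.69; without replicate 1 it was -0.47 and -0.14, and none of these 4 passed.

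No single part of Kdm1a lost its junctions. All 17 had a negative fitted log2 fold change against YAP, from -1.64 to -0.27 with a median of -0.70, and none passed edgeR's test (smallest adjusted p = 0.0792, for intron 15; 5 had an unadjusted p under 0.05). Intron 15 held 19, 22 and 19 reads in the WT libraries, 24, 25 and 37 in YAP and 13, 10 and 14 in YAP_Lsd1ko, the one Kdm1a junction at which the knockout libraries lay below all others with at least a 2-fold lower mean. Against WT, 14 of the 17 were lower, with a median of -0.48 and no call. Intron 6 held 6, 1 and 17 reads in YAP_Lsd1ko and intron 13 held 2, 19 and 8, and these counts from the 3 knockout libraries reach into the ranges of the other groups. A test of junction usage, which asks whether one junction changes relative to the rest of its gene (diffSpliceDGE), gave Kdm1a an adjusted p of 1 against both groups. A further annotated junction, at the first intron, had 10 reads in all and fell under the minimum.

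**Figure D1:**
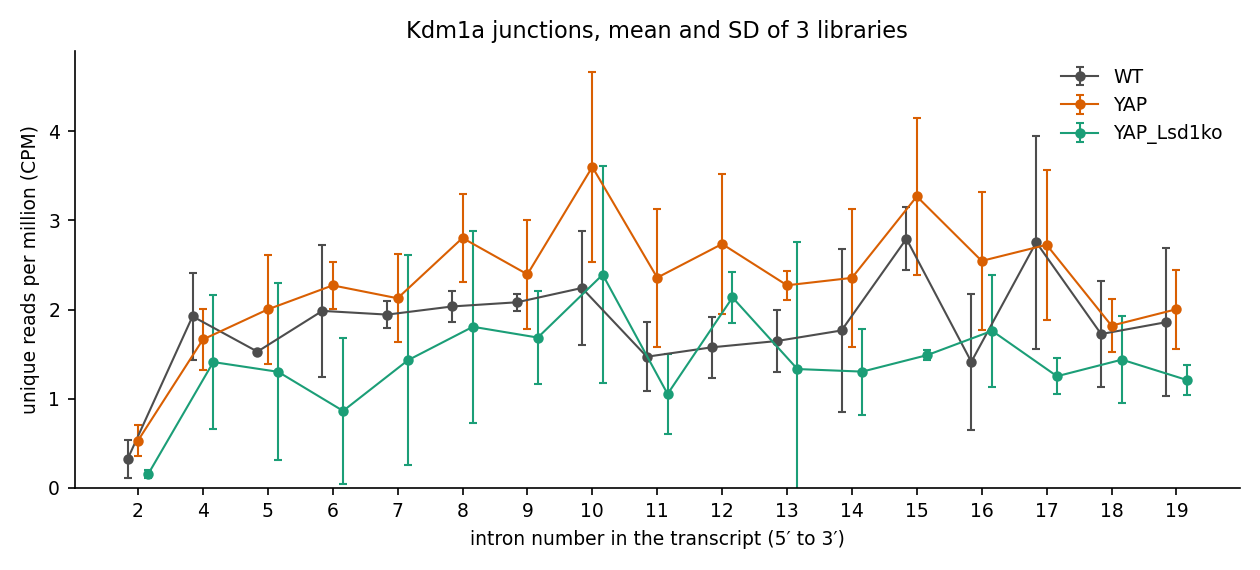
Unique reads, in CPM, over each member junction of Kdm1a, by intron number from 5′ to 3′ (intron 2 is numbered in a second transcript); points are the mean of 3 libraries and bars the SD, drawn from 0 where they would pass below it. YAP_Lsd1ko lies below YAP at all 17 junctions, and its SD overlaps YAP at many of them.

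Across the window as a whole, the median log2 fold change of members was -0.03 for YAP_Lsd1ko against YAP, 0.01 against WT and 0.04 for YAP against WT, compared with 0.01, 0.00 and 0.01 on the rest of chromosome 4. In edgeR's quasi-likelihood test with Benjamini-Hochberg adjustment over all 108660 junctions, 31 members passed for YAP_Lsd1ko against YAP, 18 higher and 13 lower, where 1.18% of all junctions passed (0.97% higher and 0.213% lower). This is 1.9% of members, and 1.98% of junctions passed on the rest of chromosome 4. The 31 came from 11 genes. Against WT, 15 members passed, 1 higher and 14 lower, against 0.989% of all junctions (0.504% higher and 0.485% lower). The share was 0.921% of members and 0.942% of the rest of chromosome 4. YAP against WT gave 87 members, 35 higher and 52 lower, where 8.65% of all junctions passed (3.72% higher and 4.94% lower). The share was 5.34% of members and 9.28% of the rest.

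These counts moved with single libraries. The counts over all 108660 junctions moved too, and are given after each count of members. Against YAP, 19 members and 682 junctions in all passed without WT replicate 3, 14 and 317 without YAP replicate 1, 14 and 632 without YAP replicate 2, and 5 and 177 without YAP replicate 3. Without YAP_Lsd1ko replicate 1 they were 67 and 4537, and without YAP_Lsd1ko replicate 3 they were 10 and 360, where all libraries gave 31 and 1285. Against WT, 44 and 2838 passed without YAP_Lsd1ko replicate 2, 7 and 261 without YAP_Lsd1ko replicate 3, and 10 and 293 without WT replicate 3, where all libraries gave 15 and 1075. For YAP against WT, with 87 and 9402 from all libraries, there were 45 and 5939 without WT replicate 1, 43 and 5017 without WT replicate 3, and 136 and 13055 without YAP_Lsd1ko replicate 2. Leaving out any 1 of the YAP libraries gave 49 members, with 4859 to 6076 junctions in all. With scaling by library size alone, which shifted the median of all junctions to -0.12, 0.13 and 0.25, the split was 15 higher and 19 lower against YAP, 4 and 14 against WT, and 66 and 33 for YAP against WT. That scaling called 1187, 1242 and 9741 junctions in all.

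Rpl11, which encodes a protein of the large ribosomal subunit, had the member with the smallest adjusted p in both knockout comparisons. Its last intron, 0.5 Mb from Kdm1a, carried 214, 191 and 266 unique reads in the WT libraries, 275, 257 and 132 in YAP, and none in any of the 3 YAP_Lsd1ko libraries. Every WT and YAP library was far above every knockout library. With a floor of 3 reads over the group, the level in YAP_Lsd1ko was at least 209.5-fold lower than in YAP and at least 259-fold lower than in WT (edgeR adjusted p = 6.62e-08 and 2.54e-08). Both calls held in all 17 alternatives run for this junction. Multi-mapped reads at the same junction were also low, at 28, 19 and 16 in YAP_Lsd1ko against 825 to 923 in WT and 834 to 1114 in YAP. They were low in the same 3 libraries.

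None of the other 4 annotated introns of Rpl11 had a unique read in any library, so the level of the gene in unique reads rests on its last junction alone. In multi-mapped reads, the fourth intron (chr4:136050391-136051170) held 1027, 819 and 1160 in the WT libraries, 1151, 1175 and 1079 in YAP and 817, 860 and 1162 in YAP_Lsd1ko, which overlap. The third intron held 527 to 650 in YAP_Lsd1ko, 444 to 588 in WT and 665 to 678 in YAP. In these raw reads the knockout libraries overlapped WT and lay below all YAP libraries. Among annotated transcripts, no copy of the Rpl11 join was found with 3 or fewer mismatches; unspliced genome sequence was not searched. The library labelled YAP_Lsd1ko replicate 2, with Kdm1a at the WT level, lacked the Rpl11 reads like the other two.

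Hdac1, the deacetylase of the CoREST and NuRD complexes, lost unique reads at neighbouring introns. Intron 4 had 7, 8 and 11 reads in the WT libraries, 18 in each YAP library and none in YAP_Lsd1ko, which is at least 17.0-fold lower than YAP and at least 10.02-fold lower than WT (edgeR adjusted p = 0.000507 and 0.00193). Intron 3 had 1, 4 and 3 reads in the WT libraries, 10, 10 and 9 in YAP and 1, 0 and 0 in YAP_Lsd1ko. The ratio of YAP to YAP_Lsd1ko was 27.4, with a 95% interval from counting error of 4.55 to 1121 (edgeR adjusted p = 0.0152), and that of WT to YAP_Lsd1ko 9.25, from 1.24 to 410.5, which edgeR did not call (adjusted p = 0.298). The other 5 Hdac1 members, introns 5, 7 and 11 to 13, did not pass. Multi-mapped reads at intron 4 numbered 4, 7 and 7 in the WT libraries, 4, 9 and 12 in YAP and 7, 5 and 9 in YAP_Lsd1ko, which overlap.

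The stretch across Hdac1 intron 4 shown above has an exact copy in the processed pseudogene Gm4864 and one with 1 mismatch in Gm10093; that across intron 3 has an exact copy in Gm10093. In edgeR's usage test (diffSpliceDGE) Hdac1 passed against YAP, with an adjusted p of 4.87e-05, and against WT, with 0.0116. Summed over its junctions, Hdac1 did not pass: the log2 fold change was -0.75 ± 0.20 against YAP (edgeR adjusted p = 0.0971). Counting unique and multi-mapped reads together ended the call of intron 3 against YAP (edgeR adjusted p = 0.579) and that of intron 4 against WT (0.12). The call of intron 4 against YAP held with both kinds of read together. It was lost without replicate 3 of every group (edgeR adjusted p = 0.425). The call of intron 3 was also lost without any 1 YAP library or without YAP_Lsd1ko replicate 3 (edgeR adjusted p from 0.056 to 0.12).

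Rbbp4, the histone chaperone of the NuRD complex, differed at 1 of its 11 members. Intron 9 held 113, 100 and 87 unique reads in the WT libraries, 151, 120 and 146 in YAP and 59, 47 and 50 in YAP_Lsd1ko, with no overlap between the knockout and the rest. The log2 fold change was -1.32 ± 0.23 against YAP and -1.15 ± 0.23 against WT (edgeR adjusted p = 0.00518 and 0.0159). Multi-mapped reads numbered 0 to 4 in the WT and YAP libraries and 91, 100 and 110 in YAP_Lsd1ko. The multi-mapped share was thus 60.7% to 68.8% in the knockout and at most 3.42% elsewhere. With both kinds of read added, the change was 0.24 against YAP and 0.39 against WT, neither called (edgeR adjusted p = 0.737 and 0.573). The call of the unique reads against YAP was lost without YAP replicate 3 (0.0591) or YAP_Lsd1ko replicate 3 (0.0747), and that against WT without WT replicate 1 (0.0667) or YAP_Lsd1ko replicate 3 (0.171). The processed pseudogene Gm48609 holds this stretch with 2 mismatches. The other 10 Rbbp4 introns did not pass, and the gene sum was 211 ± 31.1 CPM in YAP_Lsd1ko against 186 ± 16.3 in YAP (SD, n = 3).

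Trnau1ap, an RNA-binding protein of selenocysteine tRNA, differed in its multi-mapped reads. At intron 5 the multi-mapped reads were 7, 10 and 13 in the WT libraries, 15, 11 and 18 in YAP and none in YAP_Lsd1ko. Unique reads there were 14, 19 and 23, then 40, 36 and 31, then 20, 19 and 29, and did not differ by edgeR's test (adjusted p = 0.378 against YAP). No annotated transcript of another gene held the full 76 bases of the Trnau1ap stretch with 3 or fewer mismatches.

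Shifts of the multi-mapped share were rare elsewhere. A junction was counted when it had 10 or more unique and multi-mapped reads in each library and all 3 YAP_Lsd1ko libraries lay more than 10 percentage points outside the range of the other 6. Under this description, chosen after the values were seen and given with no test, 4 of 668 members were counted (0.599%), where 0.0205% of all such junctions were: Rpl11 intron 5, Rbbp4 intron 9, Trnau1ap intron 5 and Hdac1 intron 5 (40% to 54.5% against 6.25% to 23.1%). None of 2441 junctions on the rest of chromosome 4 was counted, and 6 of 48159 were in the genome outside the window.

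**Figure D2:**
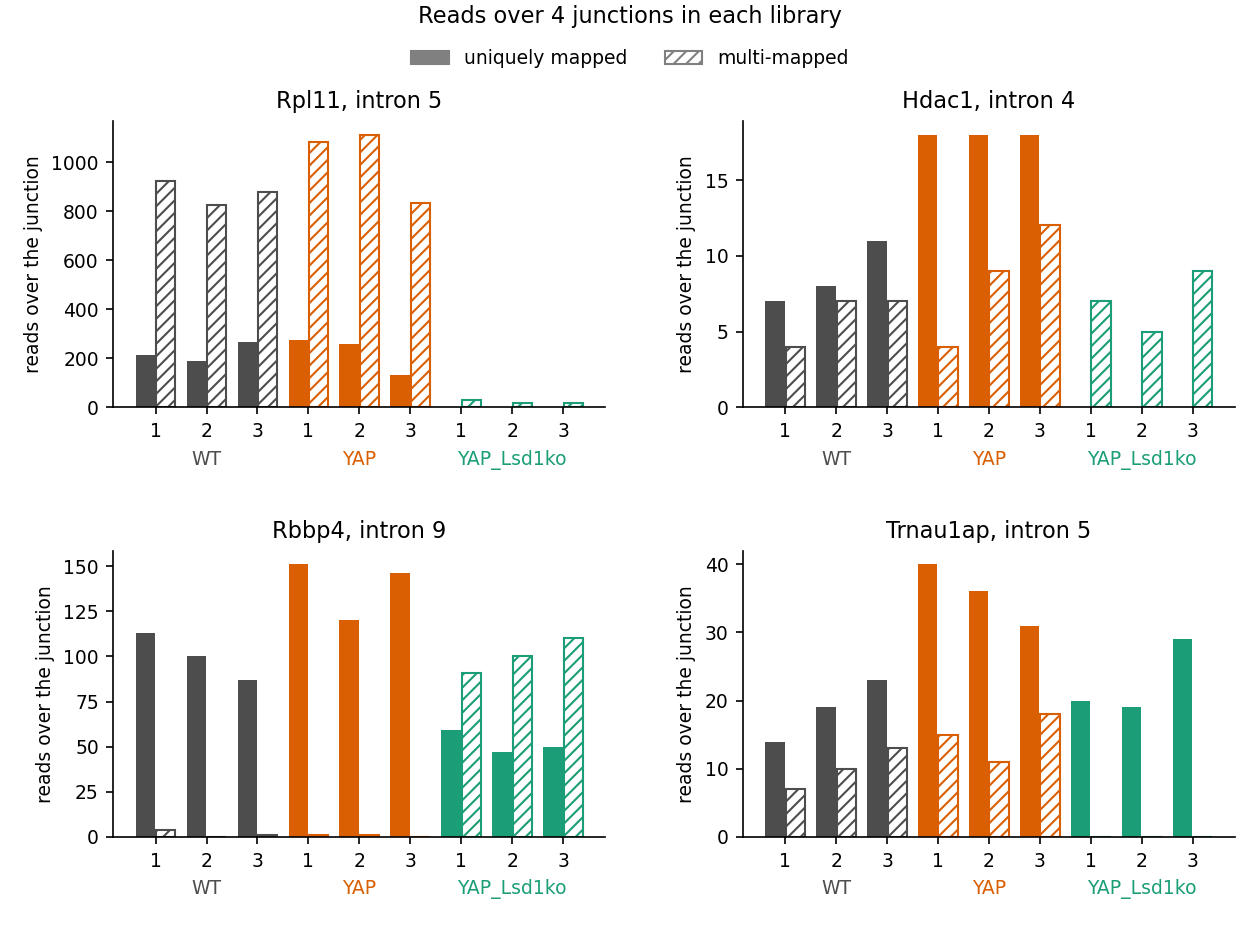
Uniquely mapped (filled) and multi-mapped (hatched) reads over 4 junctions in each of the 9 libraries, numbered by replicate. Rpl11 and Hdac1 have no unique read in the 3 YAP_Lsd1ko libraries, Rbbp4 gains 91 to 110 multi-mapped reads there, and Trnau1ap has no multi-mapped read there.

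The usage test called 2 genes of the genome for YAP_Lsd1ko against YAP (0.0197% of 10163), and both lie in the window: Hdac1, and Rbbp4 with a diffSpliceDGE adjusted p of 0.00388. Against WT it called 4 genes (0.0394%), of which Hdac1 was the member, and Rbbp4 had an adjusted p of 0.125. With YAP_Lsd1ko replicate 3 left out neither gene was called, at adjusted p of 0.169 for Hdac1 and 1 for Rbbp4 against YAP. Of the 165 member genes in this test, 7 had an unadjusted p under 0.05 against YAP (4.24%), where 0.738% of all genes did. On the rest of chromosome 4 it was 4 of 484 genes (0.826%). Rbbp4 also lost its call against YAP without YAP replicate 1 (0.124) or 3 (0.146). Against WT, Hdac1 lost its call without WT replicate 3 (0.313), YAP_Lsd1ko replicate 1 (0.105) or YAP_Lsd1ko replicate 2 (0.0532). YAP against WT called 8 genes (0.0787%) and none of the window. In that comparison 1 member gene had an unadjusted p under 0.05 (0.606%), where 1.02% of all genes did.

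Cep85, which encodes a centrosomal protein, was lower in YAP_Lsd1ko over most of its length. Its gene sum was 83.1, 39.4 and 58.5 CPM in the WT libraries, 43.6, 28.3 and 38.7 in YAP and 14.1, 14.7 and 12.2 in YAP_Lsd1ko, with no overlap between the knockout and the other 6 libraries. The log2 fold change was -1.43 ± 0.27 against YAP and -2.14 ± 0.27 against WT (edgeR adjusted p = 0.0361 and 0.00787). Introns 5 to 13, 9 junctions in all, summed to 498, 254 and 419 reads in the WT libraries, 338, 235 and 300 in YAP and 97, 71 and 86 in YAP_Lsd1ko. Introns 2 to 4, nearer the 5′ end, summed to 10, 8 and 12, then 14, 7 and 16, then 19, 17 and 26, so the YAP_Lsd1ko libraries had the most reads there. In WT the downstream junctions stood at 54.7 ± 19.8 CPM against 1.39 ± 0.225 for the 3 upstream ones, which stood at 1.41 ± 0.558 in YAP; in YAP_Lsd1ko they stood at 10.3 ± 1.22 against 2.49 ± 0.295 (SD, n = 3).

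All 9 downstream Cep85 junctions passed edgeR's test against WT and 6 of them against YAP, and none of the 3 upstream ones passed in either. Of the upstream ones, intron 3 (chr4:134156372-134167288) had 2, 2 and 4 reads in the WT libraries, 3, 5 and 4 in YAP and 7, 7 and 11 in YAP_Lsd1ko, with no overlap between the knockout and the other 6 libraries. The division into upstream and downstream junctions was drawn after the values were seen. The usage test, which covers all 12 junctions of the gene, gave an adjusted p of 1 against YAP and 0.155 against WT. The difference between the segments was thus not called in the main fit. With the replicate number as a block, usage was called against WT (diffSpliceDGE adjusted p = 0.0457). The gene call against YAP was lost without WT replicate 3, YAP replicate 1 or 3, or YAP_Lsd1ko replicate 2 or 3 (edgeR adjusted p from 0.0759 to 0.165). Against WT it was lost without WT replicate 3 or YAP_Lsd1ko replicate 3, at 0.0504 and 0.0564. Besides the annotated junctions, 2 unannotated ones inside Cep85, the first of them on the opposite strand, had 23 and 13 reads over the WT and YAP libraries and none in YAP_Lsd1ko.

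**Figure D3:**
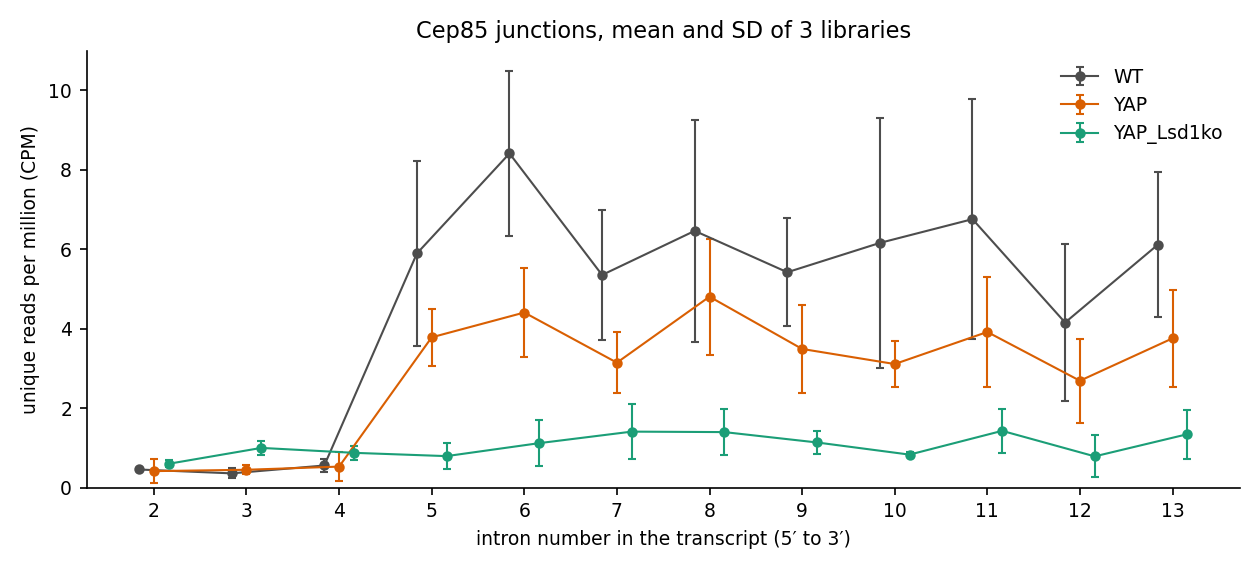
Unique reads, in CPM, over the 12 member junctions of Cep85, by intron number from 5′ to 3′; points are the mean of 3 libraries and bars the SD. From intron 5 on, WT and YAP stand above YAP_Lsd1ko, while at introns 2 to 4, which summed to 1.39 CPM in WT and 1.41 in YAP, YAP_Lsd1ko is higher at 2.49, a difference that passed the test at none of the 3 junctions.

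Of the 180 genes, 169 had enough reads for the gene test. For YAP_Lsd1ko against YAP, 7 passed (4.14%), 5 higher and 2 lower, where 2.12% of all 10897 genes passed (1.75% higher and 0.367% lower). The 2 lower ones were Rpl11 and Cep85. On the rest of chromosome 4, 16 of 502 tested genes passed (3.19%), 14 higher and 2 lower. This comparison and that of YAP with WT share the YAP libraries. Leaving out YAP replicate 1 gave 4 member genes of 41 called in all, YAP replicate 3 gave 2 of 5, YAP_Lsd1ko replicate 1 gave 11 of 842 and YAP_Lsd1ko replicate 3 gave 3 of 30, where all libraries gave 7 of 231.

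Agmat, the mitochondrial enzyme that turns agmatine into putrescine, had 104, 109 and 99.2 CPM in the WT libraries, 31.3, 27.7 and 23.7 in YAP and 65.3, 60.2 and 67.3 in YAP_Lsd1ko. The 3 groups did not overlap, and the knockout libraries stood between the others. Its log2 fold change was 1.22 ± 0.12 against YAP and -0.69 ± 0.12 against WT (edgeR adjusted p = 0.00715 and 0.0233). All 6 Agmat junctions passed against YAP. The call against YAP held without any single library. That against WT was lost without any 1 WT library or without YAP_Lsd1ko replicate 1 or 3 (adjusted p from 0.055 to 0.0972) and with library size scaling (0.106).

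Zbtb8os, the archease that assists the tRNA ligase complex, had 21.4 ± 3.45 CPM in YAP and 46.2 ± 7.04 in YAP_Lsd1ko, a log2 fold change of 1.11 ± 0.16 (edgeR adjusted p = 0.0145). Its WT libraries, at 39.3 ± 3.56, lay at the level of the knockout. All 6 of its junctions have a near-identical stretch in the processed pseudogene Gm8539, 2 of them exact, so its counts are uncertain. The call was lost without YAP replicate 3 (0.0959) or YAP_Lsd1ko replicate 3 (0.0793).

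Nr0b2, the nuclear receptor SHP that represses bile acid synthesis, was measured over its single intron. It had 26, 9 and 30 reads in the WT libraries, 3, 5 and 4 in YAP and 44, 25 and 39 in YAP_Lsd1ko. The log2 fold change was 3.19 ± 0.47 against YAP (edgeR adjusted p = 0.015), and it was lost without YAP replicate 1 or 3 or YAP_Lsd1ko replicate 3 (0.0739 to 0.0977). Extl1, a glycosyltransferase of the exostosin family, had 8, 6 and 5 reads in YAP and 51, 50 and 39 in YAP_Lsd1ko over its junctions (log2 fold change 2.98 ± 0.40, edgeR adjusted p = 0.0106, lost without YAP replicate 3 at 0.0829).

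Besides Hdac1 and Rbbp4, 3 genes had single junctions called against YAP without passing as genes. Tcea3, a transcription elongation factor, had 2 of its 10 junctions called, both lower; its gene change was -0.94 ± 0.22 (edgeR adjusted p = 0.0672). Sh3bgrl3 had 1 of 2 called, lower, and Paqr7, a membrane progestin receptor, its only member, higher.

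Against WT, 5 member genes passed in YAP_Lsd1ko (2.96%), where 2.05% of all genes did (1.12% higher and 0.927% lower). On the rest of chromosome 4, 12 of 502 tested genes passed (2.39%). The member genes Rpl11, Cep85 and Agmat were lower. Arhgef19, a guanine nucleotide exchange factor, and Crybg2 were higher. Arhgef19 had 10.1 ± 1.66 CPM in the WT libraries, 20.1 ± 2.26 in YAP and 19.4 ± 2.25 in YAP_Lsd1ko, and every library of the 2 YAP groups lay above every WT library (log2 fold change 0.94 ± 0.17, edgeR adjusted p = 0.0289). Crybg2 had 11, 19 and 10 reads in WT and 60, 41 and 42 in YAP_Lsd1ko (1.61 ± 0.32, edgeR adjusted p = 0.0388). The Arhgef19 call was lost without any 1 WT library, YAP replicate 3, or YAP_Lsd1ko replicate 1 or 3 (0.062 to 0.0927), and that of Crybg2 without WT replicate 1 or 3, any 1 YAP library, or YAP_Lsd1ko replicate 1 or 3 (0.0606 to 0.172). The number of member genes was 2 without WT replicate 1 or YAP_Lsd1ko replicate 1, 3 without WT replicate 2 or YAP replicate 3, 1 without WT replicate 3 or YAP_Lsd1ko replicate 3, and 10 without YAP_Lsd1ko replicate 2. Over all genes these fits called 26 (without WT replicate 3) to 606 (without YAP_Lsd1ko replicate 2), where all libraries gave 223.

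**Figure D4:**
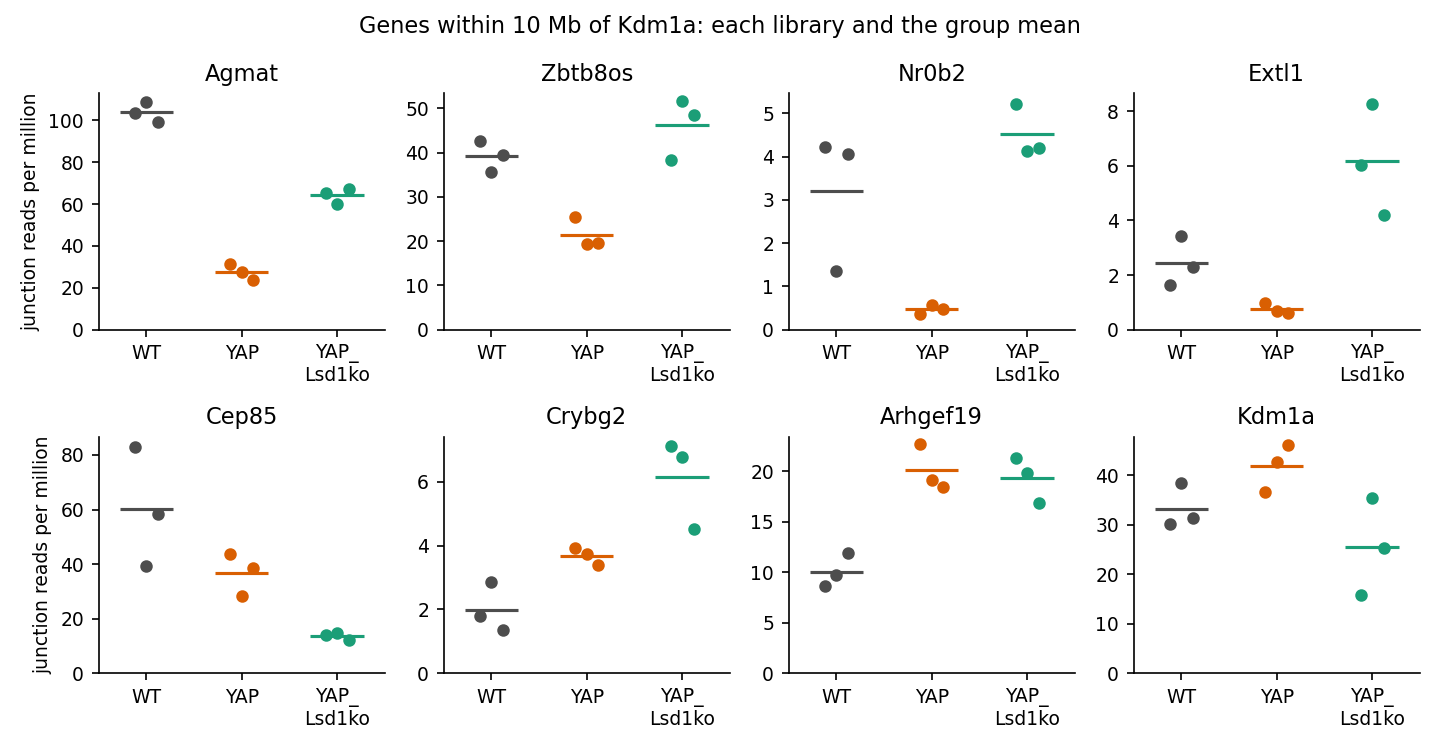
Junction reads in CPM, summed per gene, for 8 genes of the window; each point is a library and each line the mean of its group. In YAP_Lsd1ko, Agmat, Zbtb8os, Nr0b2 and Extl1 stand above YAP, Cep85 stands below both other groups, and the Kdm1a points range from 15.8 to 35.4.

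In YAP against WT, 29 of the 169 genes passed (17.2%), 14 higher and 15 lower. Of all genes 17.4% passed (7.44% higher and 10% lower), and of the 502 on the rest of chromosome 4 19.7% passed. The share of the window was close to the background. Lower in YAP, beside Agmat (log2 fold change -1.91 ± 0.12, edgeR adjusted p = 0.000216), were Aldh4a1 of proline breakdown (-1.46 ± 0.28), Wdtc1 (-1.25 ± 0.23) and Akr7a5, an aldehyde reductase (-1.17 ± 0.20). Higher in YAP were Clspn, an adaptor of the replication checkpoint (2.29 ± 0.48), Themis2 (1.76 ± 0.39), the lysosomal pump Atp13a2 (1.37 ± 0.35), Rap1gap (1.19 ± 0.23) and Arhgef19 (0.99 ± 0.17). The call of Clspn was lost without WT or YAP replicate 3, that of Themis2 without WT replicate 1 or 3 or YAP replicate 2 or 3, and that of Atp13a2 without WT replicate 1 or 3, any 1 YAP library or YAP_Lsd1ko replicate 3 (edgeR adjusted p from 0.0515 to 0.0836). With library size scaling the split was 35 higher and 7 lower, since that scaling moved the median of all genes to 0.31. Without YAP replicate 3 or WT replicate 3 the count was 10, without YAP replicate 1 or 2 it was 12 and 15, without WT replicate 1 it was 17, and without YAP_Lsd1ko replicate 3 it was 19. Over all genes these fits called 761 (without WT replicate 3) to 1376 (without YAP_Lsd1ko replicate 3), where all libraries gave 1901.

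By function, few window genes passed between YAP_Lsd1ko and YAP. Of 21 tested genes of liver metabolism 3 rose, Agmat and Nr0b2 among them, and none fell; their median log2 fold change was 0.36, against -0.01 over all genes. Over all genes tested 1.75% passed as higher and 0.367% as lower, the shares beside which each list's count is read. None of the 19 tested genes of the RNA processing and translation list passed (median -0.16); that list does not hold Rpl11 and Zbtb8os, which did pass. Within it, Snhg12, at -0.94 ± 0.25, had the smallest p (edgeR adjusted p = 0.0974). Among 17 genes of chromatin and transcription Nr0b2 rose and none fell (median -0.20). None of 17 genes of cytoskeleton, adhesion and matrix passed (median -0.16). Of 21 tested genes encoding subunits of the LSD1 and NuRD complexes anywhere in the genome none passed in either YAP_Lsd1ko comparison; the smallest p against YAP was that of Hdac1.

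None of the 10 tested immune and macrophage genes passed against YAP; their median log2 fold change was -0.80. They include C1qa, C1qb and C1qc, the complement C1q chains made by liver macrophages, which lie 0.28 to 0.29 Mb from Kdm1a. C1qb had 103, 137 and 104 CPM in YAP and 105, 22.2 and 71.7 in YAP_Lsd1ko replicates 1 to 3, so the knockout libraries ranged from below 2 of the 3 WT libraries to the level of YAP. The summed level of 12 macrophage markers moved with it, from 620 to 1343 CPM in WT and 2849 to 3434 in YAP to 601 to 2837 in YAP_Lsd1ko, and 6 biliary markers stood at 50.4 to 107, 968 to 1149 and 156 to 617 CPM. Their part in the results was not tested. The 10 hepatocyte markers summed to 131023 to 230496 CPM and all had reads.

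Where along the chromosome the knockout libraries stood apart was described with a count chosen after the values were seen. A junction was taken when all 3 YAP_Lsd1ko libraries lay outside the range of the other 6 and the means differed at least 2-fold. In the lower direction this held for 28 members (1.72%), where 0.411% of all junctions and 0.538% of the rest of chromosome 4 were so; in the higher direction for 8 members (0.491%), against 0.397% and 0.654%. With no minimum fold, it held for 42 members in the lower direction (2.58%, against 1.11% of all) and 36 in the higher (2.21%, against 1.25%). Of the 28, Cep85 supplied 9, Sfpq 3 (1 shared with Gm12940), and Hdac1, Gmeb1 and Arhgef10l 2 each; the other 10 came from 10 genes, Rpl11, Rbbp4 and Kdm1a among them. Extl1 supplied 3 of the 8 higher ones. Members of 1 gene share their transcripts and are not independent.

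These junctions lay mainly on the side of lower coordinates. From 10 Mb below Kdm1a to Kdm1a the 2-Mb bins held 24 of them in the lower direction, that of Kdm1a included, and all 8 in the higher direction, and from Kdm1a to 10 Mb above 4 in the lower direction. The bin 2 to 4 Mb below Kdm1a, which holds Cep85, had 12 lower and 4 higher of 219 junctions (7.31%). A bin outside the window was as high: that 20 to 22 Mb below Kdm1a had 12 lower and 4 higher of 195 (8.21%), all in the fatty acid hydroxylase genes Cyp4a10, Cyp4a12a, Cyp4a14 and Cyp4a31. A junction with no read in YAP_Lsd1ko and reads in all 6 other libraries occurred 2 times in the window (Rpl11 and Hdac1), not at all in 5202 junctions of the rest of chromosome 4, and 5 times in all 108660 (0.0046%).

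**Figure D5:**
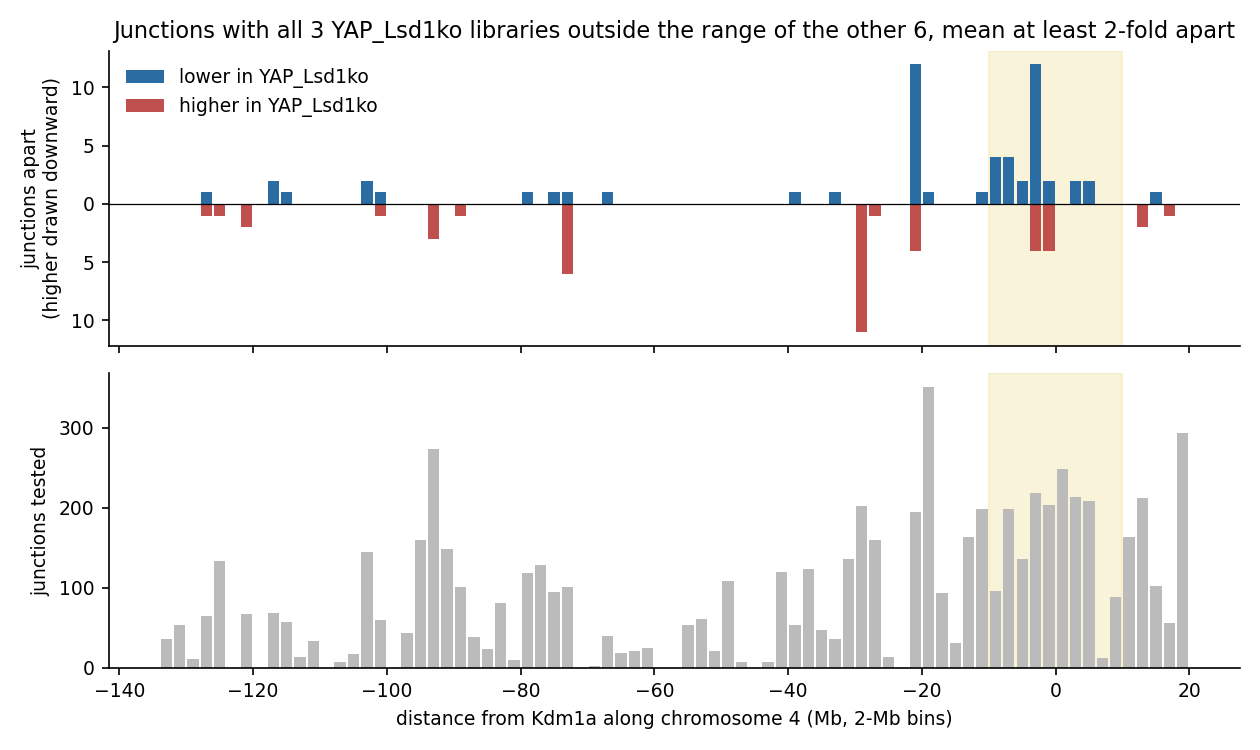
Upper panel: number of junctions in 2-Mb bins along chromosome 4, by distance from Kdm1a, at which all 3 YAP_Lsd1ko libraries lay outside the range of the other 6 with means at least 2-fold apart; lower ones are drawn upward and higher ones downward. Lower panel: junctions tested per bin; the shaded band is the window, which holds 28 of the lower and 8 of the higher ones.

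The nearest tested genes on either side that do not overlap Kdm1a were not called in YAP_Lsd1ko. Genes that overlap Kdm1a were not eligible for this choice. Hnrnpr, an RNA-binding protein 0.19 Mb below Kdm1a, had 41.3 ± 2.33 CPM in YAP and 39.6 ± 2.25 in YAP_Lsd1ko (edgeR adjusted p = 0.805), and C1qb above it is given above. At the ends of the window Clspn had 8.76 ± 1.65 and 4.20 ± 2.22 CPM (edgeR adjusted p = 0.24) and Zfp992 1.45 ± 0.67 and 1.34 ± 0.61 (0.944).

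Junctions that lacked the aligner's annotation flag were described in the same way, with no test. Of 53 in the window with 20 or more reads, 4 were lower in YAP_Lsd1ko under the 2-fold description, where 0.985% of all 4670 such junctions were, and 2 were higher, where 1.41% were. One in Tmem234 (chr4:129601962-129602194) had 21, 9 and 8 reads in the WT libraries, 16, 15 and 13 in YAP and none in YAP_Lsd1ko. It and the one on the opposite strand in Cep85 were the 2 with no read in YAP_Lsd1ko and reads in all other libraries, where 0.107% of all were so. The other lower ones lay in Dhdds and in Kdm1a. The junctions in Tmem234, Dhdds and Kdm1a match introns of GENCODE M21 in start, end and strand, and lack only the aligner's flag. The Cep85 one matches no such intron. The Kdm1a junction (chr4:136582100-136592964) had 5, 3 and 5 reads in the WT libraries, 7, 4 and 9 in YAP and 3, 1 and 2 in YAP_Lsd1ko. In CPM all 3 knockout libraries lay below the other 6.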

How the data were processed

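Total RNA of mouse liver was depleted of ribosomal RNA and sequenced as stranded libraries, per the labels. The submitters' processing notes name bcl2fastq, FastQC, STAR, featureCounts, edgeR and the mm10 build, with no versions. The deposited values are STAR's counts of uniquely mapped reads and of multi-mapped reads across each splice junction, as raw whole numbers. A further column that the authors deposited, the overhang of spliced reads, is another kind of value and was not used. The source of STAR's annotation flag is not stated per the labels; gene and intron names were matched from GENCODE M21 (GRCm38).

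Unique reads of the 108660 annotated junctions with 20 or more reads were fitted over all 9 libraries with edgeR 4.0.16 (quasi-likelihood test, robust, TMM scaling) in R 4.3.3, with Benjamini-Hochberg adjustment over all junctions. Junctions of exactly 1 gene were summed and fitted likewise over 10897 genes that passed filterByExpr, and junction usage was tested with diffSpliceDGE (Simes) over 10163 genes. CPM are reads per 1000000 of the TMM-scaled library size. For a group without a read, folds are bounds that give that group 3 reads in all. Count intervals are exact at the 95% level and cover counting error only. The scripts were tested on simulated data. Alternatives were RLE and library size scaling, DESeq2 1.42.0, other read minimums, a 5 Mb window, adding multi-mapped reads, the replicate number as a block, and leaving out libraries.

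The members, gene lists and tests were chosen with earlier results of these data known. Named genes were Kdm1a; up to 10 rises and 10 falls per comparison among called genes with a mean of at least 50 reads in the higher group; the genes with a usage call; the nearest and outermost genes; the 3 most read genes; and 4 genes of each list with the smallest p. Extl1, Crybg2, Paqr7, Sh3bgrl3, Gmeb1, Arhgef10l, Tmem234 and Dhdds, and single junctions and separated members, were chosen after their values were seen. The result of 1 gene that the rule names is not reported here.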

Additional observations from a re-analysis of the deposited data

Results flagged for a closer look

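An unannotated junction at chr4:136085714-136094937, on the minus strand and in no annotated gene, had 7 unique reads in each of the 3 YAP_Lsd1ko libraries, 21 in all, and none in the 6 WT and YAP libraries. It stands out because its signal lies outside the annotated junctions and is absent from the libraries without the knockout label. It met the minimum of summed reads only through its 21 reads in YAP_Lsd1ko, and was picked after its values were seen. It is thus given as a description, with no test of that absence. It begins 32.3 kb above the end of Rpl11 and ends 48.6 kb below the start of Id3. Its source was not tested.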

How the results depend on the processing

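Without replicate 3 of every group, which leaves 2 libraries a group, 1, 1 and 5 members passed of 1, 16 and 475 junctions in all. These were for YAP_Lsd1ko against YAP, against WT and for YAP against WT. In each comparison 0 genes of the genome passed the gene test. For the knockout comparisons 0 member genes passed the usage test. In a 5 Mb window, which holds fewer junctions, 17 members passed against YAP and 18 genes for YAP against WT. Hdac1 and Rbbp4 lie outside that window, so its 0 genes with a usage call against YAP or WT were fixed by its bounds. With DESeq2, 12 genes passed against YAP (5 higher and 7 lower) of 712 called in all. Against WT 10 passed (6 and 4) of 597, and for YAP against WT 38 (22 and 16) of 2508. The main fit called 231, 223 and 1901 genes in all, and the cause was not tested. With library size scaling the gene splits were 5 higher and 3 lower of 146 called in all, 4 and 2 of 273, and 35 and 7 of 2545. Adding multi-mapped reads turned the Rbbp4 intron 9 change to 0.24 against YAP and 0.39 against WT, since that junction gained multi-mapped reads in the knockout.

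Leaving out 1 library at a time gave 5 to 67 members against YAP, 7 to 44 against WT and 43 to 136 for YAP against WT. The genes numbered 2 to 11, 1 to 10 and 10 to 41, and those with a usage call 0 to 2 against YAP and 0 to 1 against WT. The median of the window minus that of the rest of chromosome 4 ranged from -0.105 to -0.0199 against YAP and from -0.0823 to 0.0279 against WT.

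The replicate numbers did not pair the libraries: of 9 same-numbered pairs 4 had a correlation of deviations over 0.1 (range -0.643 to 0.326), and 3 of 9 libraries correlated best with their own number. With the replicate number as a block, 17, 11 and 52 members passed in the 3 comparisons, of 528, 573 and 6212 junctions in all. Of 46, 89 and 1027 genes called in all, 3, 2 and 15 were member genes. The 2 member genes with a usage call were Hdac1 and Rbbp4 against YAP, and Hdac1 and Cep85 against WT. The block ended the edgeR calls of Zbtb8os, Nr0b2, Cep85 and Hdac1 intron 3 against YAP (adjusted p from 0.063 to 0.0706). It also ended those of Agmat, Arhgef19, Crybg2 and Rbbp4 intron 9 against WT (0.0504 to 0.11). For YAP against WT, those of Clspn, Themis2 and Atp13a2 ended (0.052 to 0.0902).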
